A study of Drosophila melanogaster with 18 samples.

Results

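Messenger RNA of heads was compared between elav-GS-Gal4 flies fed RU486 and elav-GS-Gal4 flies fed ethanol, in 3 samples of each. In elav-GS-Gal4, the promoter of the neuronal gene elav drives GeneSwitch, a Gal4 transcription factor fused to the hormone-binding part of the progesterone receptor, which becomes active when it binds RU486 (mifepristone). Every fly of both groups carried that driver, and no UAS target gene is named for these samples. Adult males were first held on normal food and were then given food containing RU486 at 100 µM in ethanol, or the ethanol solvent alone, for 10 days. The number of heads in a sample is not given in the sources used here. These 6 of the 18 samples of the series were chosen by stock, tissue and treatment alone, and the other 12 are thoraces. Counts were available for 15682 gene symbols, of which 10653 passed a filter on low counts and were tested.

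The fly head is mostly compound eye and brain, with fat body, muscle and cuticle around them, and its antennae and proboscis carry the smell and taste hairs. A sensory hair holds a few neurons and the support cells that make its cuticle shaft and secrete its lymph. The lymph carries odorant-binding proteins, small soluble carriers of odour molecules, while odorant, gustatory and ionotropic receptors sit in the neurons' membranes. Similar taste and touch hairs cover the legs and wings, so that heads and thoraces share many of these transcripts. Hox genes are transcription factors that mark segments along the body from the mouthparts to the tip of the abdomen.

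Levels are given in CPM, the usual unit of counts scaled to a common library size, here with the library total on genes adjusted by TMM (trimmed mean of M-values), and always in the order of the replicate numbers 1, 2 and 3. The reads counted on genes ran from 40830481 to 73692587 per library. Differences are log2 fold changes of RU486 over control with their standard error, from the quasi-likelihood test of edgeR with Benjamini-Hochberg adjustment over all 10653 genes, and a gene is said to have risen or fallen where the adjusted p was under 0.05. The labels number the samples without saying that they came from separate cultures. The paper's methods give biological triplicates as its general rule, without saying how the head samples were kept apart. The p-values measure the spread between these samples only.

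Control replicates 1 and 2 stood apart from the other 4 libraries. In both of them, 1481 of the 15682 genes reached 1 CPM or more while staying under 10% of that level in each of the other libraries, and these genes summed to 62165 and 18284 CPM against at most 263.93 CPM elsewhere. Genes of testis, gut and abdominal segments were among them. The testis list summed to 5959, 1588 and 259.6 CPM in the controls and 251, 239.7 and 319 CPM after RU486, and the digestive proteases to 2439.6, 822 and 85.8 CPM and 83.1, 86.4 and 93.6 CPM. Abd-B, the Hox gene of the last abdominal segments, was at 6.45, 3.30 and 0.0696 CPM and 0.0679, 0.0313 and 0.0786 CPM, and Cyp4g1, the oenocyte enzyme that makes cuticular hydrocarbons, at 6519, 2184 and 45.1 CPM and 96.1, 79.5 and 45.2 CPM. Across genes, which are not independent replicates, the log2 levels of these 2 controls correlated with a Pearson's r of 0.981, those of each with control replicate 3 at 0.923 and 0.97, and those of control replicate 3 with the RU486 libraries at 0.983 to 0.989. Results are therefore also given without control replicates 1 and 2, an alternative chosen after seeing the data, which leaves control replicate 3 as the only control and assumes that it varies as the RU486 samples do.

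**Figure D1:**
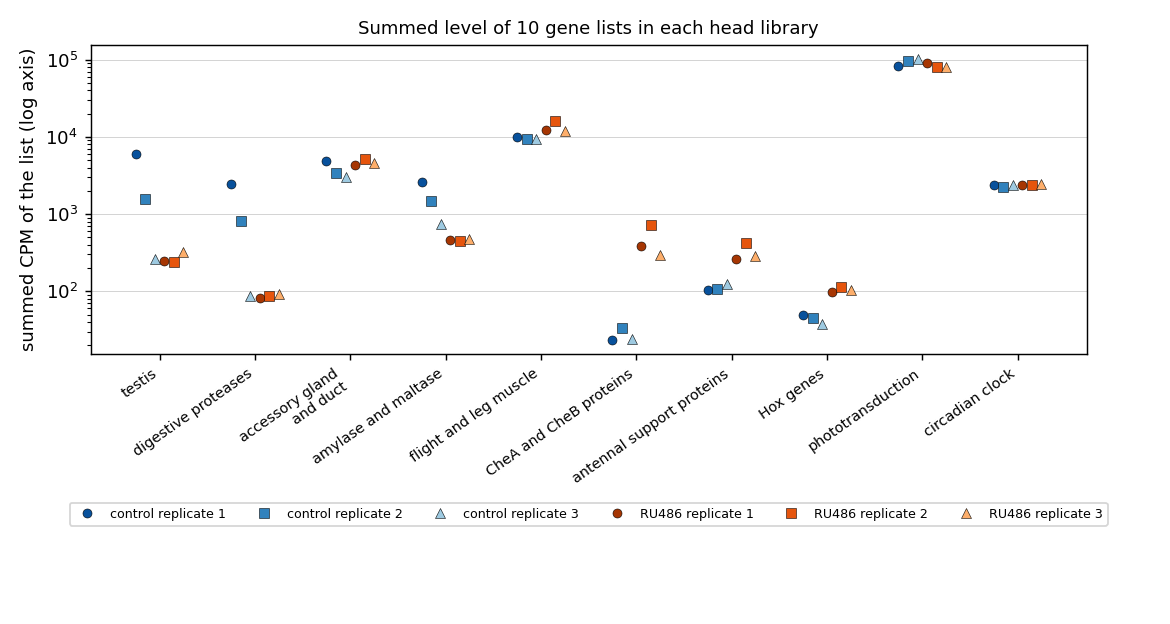
Summed level (CPM, log axis) of 10 gene lists in each head library, with 1 point per library, blue for control and orange for RU486. Testis and digestive protease genes were high in control replicates 1 and 2 alone, CheA and CheB, antennal support and Hox genes were higher in all 3 RU486 libraries than in any control, and the clock genes lay between 2263 and 2455 CPM in all 6.

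All 6 libraries were rich in head transcripts. The opsin ninaE of the outer photoreceptors was at 32935, 38941 and 41982 CPM in the controls and 35811, 32773 and 31969 CPM after RU486, against a mean of 44.7 CPM in the w1118 control thoraces of the series. The pan-neuronal gene elav was at 151, 140.2 and 166 CPM and 163, 160.1 and 214 CPM, and the glial gene repo at 62.3, 76.3 and 77.6 CPM and 74.8, 71.1 and 69.1 CPM. None of these 3 passed the test (adjusted p = 0.376, 0.341 and 0.969).

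After RU486, 533 of the 10653 genes were higher (5.0%) and 83 were lower (0.779%). Among the genes that rose, 263 did so more than 2-fold and the median was 1.97-fold, whereas 8 fell more than 2-fold and the median fall was 1.36-fold. Larger falls that missed the adjusted threshold were more numerous: 568 genes were more than 2-fold lower at an unadjusted p under 0.05, 204 of them without overlap. In each of the called genes the 3 RU486 libraries lay on one side of the 3 controls. Over all genes tested, 18.7% lay above and 10.8% below in that sense, and the median log2 difference over all genes was 0.00. Because no called gene overlapped between the groups, leaving out libraries could hardly change its direction. Without control replicates 1 and 2, which leaves out 2 libraries at once, 1.18% of the same 10653 genes were higher and 0.141% lower, 93 and 12 of the genes called being shared with the comparison of all 6 libraries, and every one of the 533 and 83 genes kept its direction.

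The counts also depended on single libraries. Omitting 1 library and repeating the filter gave 277 higher and 48 lower genes without control replicate 1, 91 and 15 without control replicate 2, 870 and 2511 without control replicate 3, 1 and 0 without RU486 replicate 1, 149 and 14 without RU486 replicate 2, and 0 and 0 without RU486 replicate 3. In edgeR's test 1324 and 251 genes had an unadjusted p under 0.05 without RU486 replicate 1, and 1386 and 513 without RU486 replicate 3. With the genes of the 6-library filter kept, the same omissions gave 91 to 589 higher and 13 to 823 lower genes. Counts given below for a gene list without 1 library are from these fits on the same genes. RU486 replicate 2 was the highest RU486 library in 415 of the 533 genes that rose (77.9%), against 4103 of all 10653 (38.5%), and control replicate 1 was the lowest control in 298 of the 533. What these differences between libraries contribute was not tested.

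Of the 533 genes that rose, 399 were on no list and 73 were sensory. A further 19 were cuticle genes, 15 metabolic, 10 of the body-region lists, 10 of the takeout family grouped with the clock, 5 of other tissues, 1 of the gut lists and 1 neuronal. The genes that fell were placed otherwise. Of the 83, 62 were on no list, 14 were metabolic, 3 were gut genes, and 1 each was in the sensory, body-region, other-tissue and stress lists. The categories differ in size, so these counts are not shares. Of all genes tested, 5.0% rose and 0.779% fell, and each list's counts below are to be read beside these shares. The lists and their members were chosen with earlier results of these data known. A list's share or rank therefore describes these data and is no independent test. The metabolic rises were in the cytochrome P450 (13.2% of those tested), transferase (10.8%) and glycolysis (7.14%) lists. The highest shares that fell in metabolic lists were 36.8% (purine and one-carbon) and 13% (lipid).

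**Figure D2:**
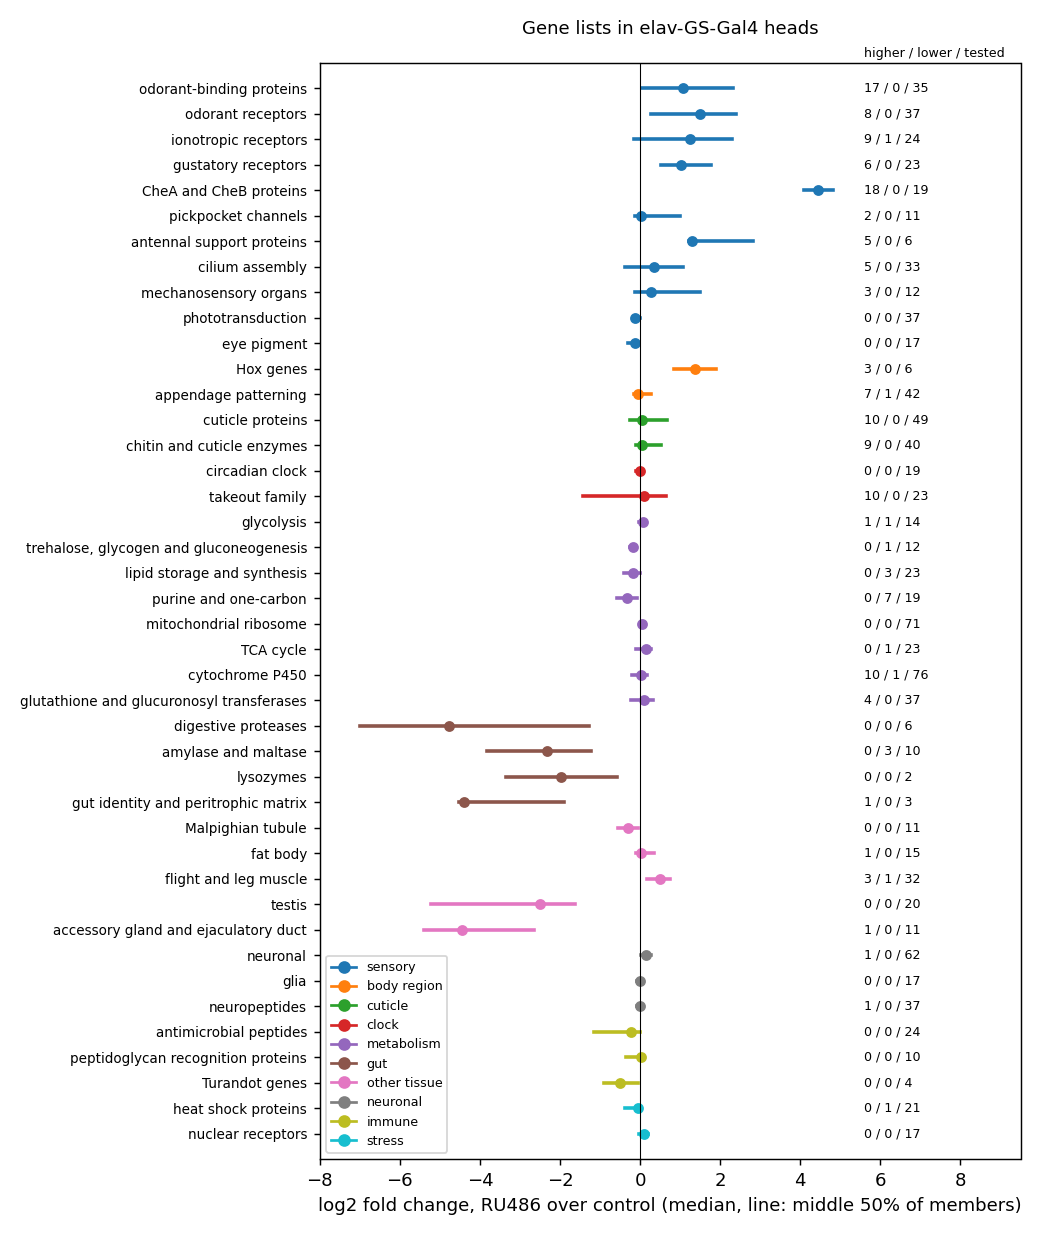
Median log2 fold change of RU486 over control for 42 gene lists (points; lines span the middle 50% of the members tested), coloured by category, with the number of genes higher, lower and tested printed at the right. CheA and CheB genes had a median of 4.44 with 18 of 19 higher, phototransduction, eye pigment and clock genes had none called, and the wide negative lines belong to gut, testis and accessory gland lists, which were high in control replicates 1 and 2.

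The CheA and CheB genes had the highest median of the 42 lists. They encode small secreted proteins related to lipid-binding GM2 activator proteins, several of which are made in the taste hairs of the front legs. Of 20 listed, 19 were tested and 18 rose. In the controls the 19 summed to 23.4, 33.9 and 23.8 CPM, and after RU486 to 388, 719 and 292 CPM. The median log2 difference was 4.44, against 0.00 for all genes tested. Of the 19, 4 passed the filter only because of their RU486 counts, and all 4 are among the 18.

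CheA75a was at 4.90, 5.96 and 3.97 CPM in the controls and 79.9, 153 and 70.3 CPM after RU486, a log2 difference of 4.36 ± 0.40 (adjusted p = 0.0085). CheA7a, at 3.66, 4.798 and 2.62 CPM and 66.2, 120.4 and 53.6 CPM, rose by 4.45 ± 0.44 (adjusted p = 0.00992). Among the CheB genes, CheB38b went from 1.42, 2.76 and 1.78 CPM to 41.8, 76.0 and 23.1 CPM, a rise of 4.58 ± 0.58 (adjusted p = 0.0192). In all 3 genes the lowest RU486 library was more than 8 times the highest control.

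CheB93a, with 0.305, 1.41 and 0.696 CPM in the controls and 20.0, 40.5 and 12.0 CPM after RU486, rose by 4.95 ± 0.81 (adjusted p = 0.0351), while its neighbour in name CheB93b did not pass the test with a log2 difference of 4.52 ± 0.91 (adjusted p = 0.0589). CheA86a was at 0.347, 0.727 and 0.292 CPM and 10.6, 18.9 and 5.41 CPM and rose by 4.70 ± 0.66 (adjusted p = 0.0212). The highest fitted rises were those of CheB53b (5.38 ± 0.86), CheA56a (5.22 ± 0.70), CheA46a (5.21 ± 0.98) and CheB74a (5.16 ± 0.56), whose control levels lay between 0.0139 and 0.153 CPM, so that these values depend on a few control counts. CheA29a rose by 4.44 ± 0.58, and CheB42b, CheA87a, CheA84a, CheB38c and CheB98a by 3.48 to 4.32. The smallest differences of the list were those of CheB53a, which rose by 2.76 ± 0.45, and CheB42a, which rose by 3.01 ± 0.43. The RU486 libraries were ordered alike in every gene of the list: replicate 2 was highest and replicate 3 lowest in 19 of 19.

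The number called rested on single libraries and was 8 without control replicate 1, 2 without control replicate 2 and 8 without RU486 replicate 1. With the filter repeated after each omission of 1 library, the number called ran from 0 to 19 and the median from 3.88 to 4.66. Without control replicates 1 and 2 the median was 4.67, and 0 genes passed edgeR's adjusted test while 19 had an unadjusted p under 0.05. In the w1118 control thoraces, which were scaled separately, all 19 genes lay at or above their mean in the head controls, with CheA75a at 172 CPM and CheA7a at 137 CPM. The level differed between thorax stocks. In the Act88F-GS-Gal4 control thoraces CheA7a, CheB38b, CheB93a and CheA86a were at 4.76, 3.43, 1.73 and 0.532 CPM, against 137, 29.5, 35.4 and 21.0 CPM in w1118. Genes of flight and leg muscle were also higher in the RU486 heads, at sums of 10093, 9325 and 9275 CPM in the controls and 12167, 16008 and 11780.0 CPM after RU486, with replicate 2 highest. The part of other tissue in the CheA and CheB difference was not tested, and in bulk samples more cells of a type and more RNA per cell cannot be told apart.

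**Figure D3:**
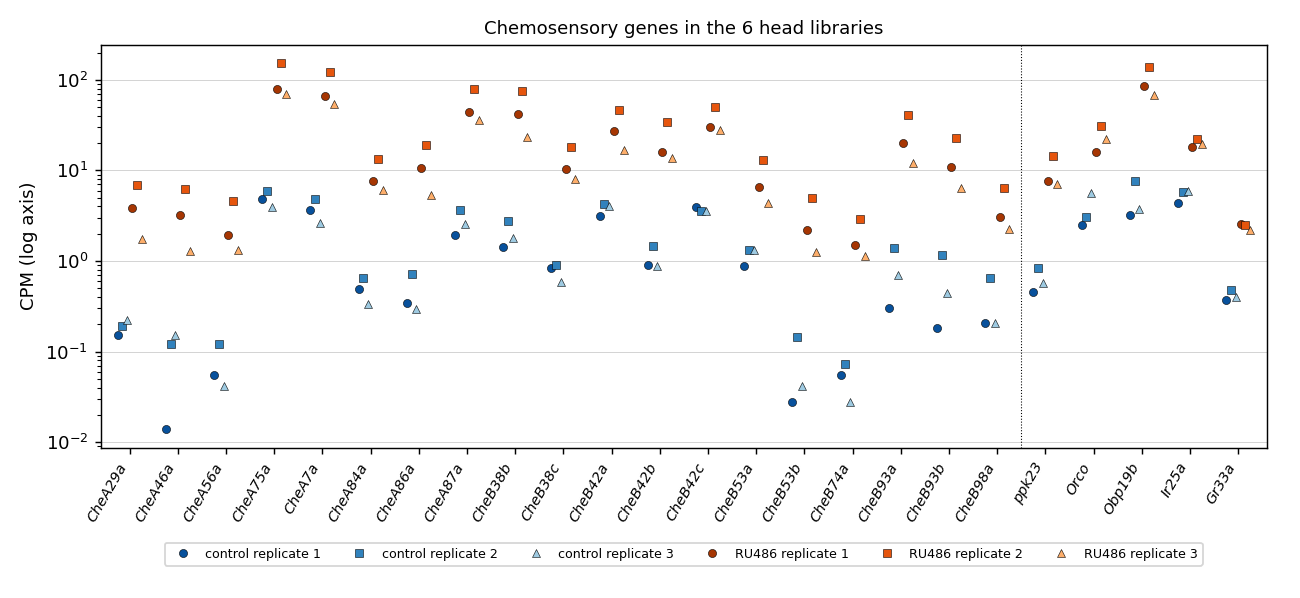
Level (CPM, log axis) of chemosensory genes in each head library, 1 point per library, blue for control and orange for RU486. In each gene shown, the 3 RU486 points lie above the 3 control points, and in most the square of RU486 replicate 2 is the highest. ppk23, Orco, Obp19b, Ir25a and Gr33a were picked from called genes, none of which overlapped between the groups, and do not stand for their lists.

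The other large rises were of little-studied genes. The 10 largest, among called genes averaging at least 2 CPM, held 5 CheA and CheB genes and CG32551, CG43841, CG18537, CG13133 and CG13428. CG13428 was at 9.75, 18.9 and 10.2 CPM in the controls and 242, 429 and 175 CPM after RU486, and rose by 4.45 ± 0.50 (adjusted p = 0.0139). CG32551 was at 0.652, 0.897 and 0.585 CPM and 16, 26.5 and 14.2 CPM and rose by 4.74 ± 0.34 (adjusted p = 0.00468). Their libraries were ordered as in the CheA and CheB genes, with RU486 replicate 2 highest and replicate 3 lowest.

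Several of these genes neighbour each other. Among the 528 risen genes that matched the RefSeq annotation of the fly genome (assembly Release 6 plus ISO1 MT), 9 runs of 3 or more adjacent genes, 32 genes in all, had every member higher. The longest was a run of 6, CG14502 and CG18536 to CG18540. CG18536 went from 1.83, 2.25 and 1.20 CPM to 28.3, 51.9 and 23.1 CPM, a rise of 4.30 ± 0.44 (adjusted p = 0.0109), and the other 5 rose by 3.54 to 4.5. Other runs held CG6290, CG32551 and CG43841, the 3 genes CheB42a to CheB42c, the 3 genes Obp57a to Obp57c, and the transcription factor genes kni and knrl with CG13251 between them. Overlapping or near-identical neighbours can share reads, so members of a run need not be independent. Several runs hold genes of 1 family. How many runs as many tested genes taken at random would hold was not tested.

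Odorant-binding proteins rose in both abundant and rare members. Of 51 listed, 35 were tested, 17 rose and none fell, with a median log2 difference of 1.08. Their sum was 3139, 3546 and 3524 CPM in the controls and 5284, 5607 and 5430.3 CPM after RU486. The count that rose was 10 without control replicate 1, 5 without control replicate 2, 8 without RU486 replicate 1 and 10 without RU486 replicate 3, and 5 without control replicates 1 and 2, where the median was 1.05. One of the 17, Obp50a, passed the filter only because of its RU486 counts.

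Pbprp3, also known as OS-F or Obp83a and made in antennal olfactory hairs, was at 5.58, 6.57 and 10.4 CPM in the controls and 48.1, 106 and 66.7 CPM after RU486, a rise of 3.29 ± 0.41 (adjusted p = 0.0183). lush, needed for the response to the male pheromone cVA, was at 5.49, 5.11 and 6.71 CPM and 13.04, 28.2 and 18.5 CPM and rose by 1.79 ± 0.31 (adjusted p = 0.0352). Both were highest in RU486 replicate 2 and low in the w1118 control thoraces, at 0.128 and 2.68 CPM.

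Obp19b had the largest rise of the family, from 3.21, 7.66 and 3.76 CPM to 85.5, 138 and 67.5 CPM (4.33 ± 0.50, adjusted p = 0.0146). Unlike Pbprp3 it was abundant in the w1118 control thoraces, at 177 CPM, but it was at 6.77 CPM in the Act88F-GS-Gal4 control thoraces. Obp56d was at 322, 339 and 347 CPM and 931, 1187 and 969 CPM and rose by 1.61 ± 0.10 (adjusted p = 0.00468). Obp56h, at 4.04, 5.02 and 3.84 CPM and 21.8, 18.8 and 24.9 CPM, rose by 2.34 ± 0.15 (adjusted p = 0.00468) and was nearly unseen in thoraces at 0.263 CPM. Obp19a, at 1.04, 1.04 and 1.81 CPM and 8.65, 20.5 and 11.8 CPM, rose by 3.39 ± 0.43 (adjusted p = 0.0167), and Pbprp4, Obp59a, Pbprp5, Pbprp1, Obp57b, Obp56e and Pbprp2 by 0.86 to 3.14. In Obp56h and Obp49a the RU486 libraries lay close together, with replicate 3 highest, an order that differs from that of the CheA and CheB genes.

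Genes for proteins of the antennal support cells and membranes rose as well. All 6 of this list were tested and 5 rose, the list summing to 104, 108 and 125.95 CPM in the controls and 260.4, 418 and 287 CPM after RU486. Os-C, an antenna-specific secreted protein, was at 4.86, 4.77 and 9.73 CPM and 44.1, 94.7 and 60.5 CPM and rose by 3.36 ± 0.45 (adjusted p = 0.0213). Snmp1, a CD36-type membrane protein needed for pheromone detection, was at 15.8, 18.3 and 14.7 CPM and 33.96, 52.8 and 37.2 CPM and rose by 1.34 ± 0.19 (adjusted p = 0.0205).

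The remaining members of that list were Snmp2, antdh, a5 and a10. Snmp2 rose by 1.24 ± 0.11, antdh, an antennal dehydrogenase, by 1.23 ± 0.16, and a5 by 3.30 ± 0.45, while a10 did not pass the test at 1.01 ± 0.21 (adjusted p = 0.0577). RU486 replicate 2 was the highest library in all 6. The number that rose was 2 without control replicate 1, 1 without control replicate 2, 3 without RU486 replicate 1 and 2 without RU486 replicate 3. With both control replicates 1 and 2 left out it was 0, with 5 at an unadjusted p under 0.05, and the median was 1.33 against 1.29 with all libraries.

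Odorant receptors were scarce in all libraries. The list of 60 summed to 38.7, 36.7 and 43.1 CPM in the controls and 62.3, 88.3 and 75.4 CPM after RU486, and 37 members were tested, 8 of which passed the filter only because of their RU486 counts. Of the 37, 8 rose and none fell, and 2 of those that rose were among the 8 that passed through RU486 counts alone. Orco, the co-receptor shared by most odorant receptors, was at 2.47, 3.05 and 5.58 CPM and 16.2, 31.2 and 22.2 CPM and rose by 2.64 ± 0.42 (adjusted p = 0.0302). The 3 RU486 libraries lay above the controls, with replicate 2 highest, and control replicate 3 was the highest control.

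Or92a and Or42b, receptors of vinegar and fruit odours, rose from 0.125, 0.0969 and 0.181 CPM to 0.860, 1.80 and 1.32 CPM (3.26 ± 0.41, adjusted p = 0.0132) and from 0.139, 0.0727 and 0.181 CPM to 0.996, 1.49 and 1.003 CPM (3.10 ± 0.39, adjusted p = 0.0139). Or47b, which responds to fly-derived fatty acid esters, rose by 2.81 ± 0.55, Or65a by 2.67 ± 0.33, Or65b by 3.03 ± 0.57, Or85e by 2.30 ± 0.28 and Or1a by 1.53 ± 0.21. All 8 were under 1 CPM in the w1118 control thoraces, whose mean lay below the head control mean in each. Of odorant receptors, the number called was 0 without control replicate 2, 3 without RU486 replicate 1, 4 without RU486 replicate 2 and 5 without RU486 replicate 3, and 1 without control replicates 1 and 2.

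Among the ionotropic receptors, 24 of 62 were tested, 9 rose and 1 fell. The co-receptors of the family were among them. Ir25a, the co-receptor of taste, humidity and temperature neurons, was at 4.36, 5.72 and 5.92 CPM in the controls and 18.1, 22.0 and 19.4 CPM after RU486 and rose by 1.90 ± 0.14 (adjusted p = 0.00468). Ir76b was at 2.41, 2.91 and 2.85 CPM and 12.7, 14.8 and 12.3 CPM and rose by 2.28 ± 0.12 (adjusted p = 0.0039). For both, the lowest RU486 library was more than 3 times the highest control.

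Ir8a, the co-receptor of acid-sensing neurons, rose by 2.29 ± 0.44 (adjusted p = 0.0427), Ir21a, of cool-sensing neurons, by 1.25 ± 0.20 and Ir40a, of humidity-sensing neurons, by 2.08 ± 0.31. Ir52a and Ir52b, which pheromone-sensing leg neurons use, were almost absent from the controls at 0.0277, 0 and 0.0139 CPM and 0, 0.0242 and 0 CPM, and were at 0.294, 0.408 and 0.374 CPM and 0.226, 0.329 and 0.256 CPM after RU486. Ir56d, at 0.0555, 0.0485 and 0.0975 CPM and 0.815, 0.627 and 0.570 CPM, rose by 3.24 ± 0.38 (adjusted p = 0.011), and Ir31a by 2.09 ± 0.29. The fitted rises of 4.33 and 5.13 for Ir52a and Ir52b depend on the few control counts and are no bounds. Ir85a was lower, at 0.749, 0.751 and 0.613 CPM and 0.317, 0.329 and 0.275 CPM, and fell by 1.19 ± 0.23 (adjusted p = 0.0455). Of the 9 that rose, 3 passed the filter only because of RU486 counts. The number that rose was 4 without control replicate 1, 2 without control replicate 2, 4 without RU486 replicate 1, 4 without RU486 replicate 2 and 4 without RU486 replicate 3, and 2 without control replicates 1 and 2.

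Gustatory receptors of both bitter and sweet taste neurons were higher. Of 63 listed, 23 were tested and 6 rose, with a median of 1.03. The bitter receptor Gr33a was at 0.375, 0.485 and 0.404 CPM in the controls and 2.56, 2.49 and 2.22 CPM after RU486 and rose by 2.52 ± 0.20 (adjusted p = 0.00468). It also passed the test without control replicates 1 and 2, with a difference of 2.57 (adjusted p = 0.0181). Gr66a, another bitter receptor, was at 0.763, 0.945 and 0.9747 CPM and 2.08, 2.71 and 2.22 CPM and rose by 1.39 ± 0.20 (adjusted p = 0.0199).

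The sweet receptors Gr5a and Gr64f rose by 1.76 ± 0.27 and 1.57 ± 0.27, and Gr39a and Gr98d by 2.15 ± 0.25 and 2.38 ± 0.46. In this list RU486 replicate 2 was the highest RU486 library in 7 of the 23 tested genes. In all, the number called was 2 without control replicate 1, 1 without control replicate 2, 2 without RU486 replicate 1, 2 without RU486 replicate 2 and 3 without RU486 replicate 3, and 1 of the 6 passed the filter only because of its RU486 counts.

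Of the pickpocket sodium channel genes, 11 of 16 were tested and 2 rose. ppk23, which pheromone-sensing taste neurons need, was at 0.458, 0.848 and 0.571 CPM in the controls and 7.74, 14.5 and 7.14 CPM after RU486, a rise of 3.97 ± 0.40 (adjusted p = 0.0085). ppk, the channel of body-wall dendritic neurons, was at 2.64, 1.82 and 1.99 CPM and 6.97, 7.48 and 6.88 CPM and rose by 1.72 ± 0.17 (adjusted p = 0.00718). Both were called in each of the 6 omissions of 1 library on the same genes, and ppk alone without control replicates 1 and 2 (1.83, adjusted p = 0.00751). The median of the 11 was 0.02.

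In the mechanosensory list, which includes hair and stretch-receptor genes, 12 of 15 were tested and 3 rose. nompA, which encodes the extracellular cap linking a touch neuron's dendrite to the cuticle, was at 2.73, 3.66 and 3.27 CPM in the controls and 25.6, 33.3 and 22.6 CPM after RU486 and rose by 3.08 ± 0.19 (adjusted p = 0.00468). The touch channel nompC was at 3.87, 3.30 and 3.94 CPM and 10.2, 16.9 and 11.6 CPM and rose by 1.80 ± 0.21 (adjusted p = 0.011). nan, a channel of the hearing organ, rose by 2.47 ± 0.42 (adjusted p = 0.0309), while its partner iav did not pass the test at 1.39 ± 0.32 (adjusted p = 0.0675). The list's count was 1 without control replicate 2. When control replicates 1 and 2 were left out the count was 0, with 5 higher at an unadjusted p under 0.05, and nompA differed by 3.05 (adjusted p = 0.0511).

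Cilium assembly genes, which in the fly serve ciliated sensory neurons and sperm tails, gave 5 higher of 33 tested and a median of 0.35. btv, a dynein heavy chain of hearing organ cilia, was at 3.18, 2.06 and 3.45 CPM and 7.13, 12.9 and 11.9 CPM and rose by 1.87 ± 0.30 (adjusted p = 0.0271), and BBS4, a subunit of the BBSome cargo complex, rose by 1.21 ± 0.17 (adjusted p = 0.0183). The others were CG15161 (1.69 ± 0.28), CG1126 (1.69 ± 0.27) and CG15666 (1.05 ± 0.18). Of the 11 genes that RefSeq names as dynein heavy chains and that were tested, 4 rose: btv, CG9492, Dhc93AB and CG3339. CG9492 was at 3.94, 3.15 and 1.84 CPM in the controls and 24.7, 45.2 and 24.5 CPM after RU486 and rose by 3.40 ± 0.42 (adjusted p = 0.0176), with the RU486 libraries again highest in replicate 2. This family was chosen after its values were seen. The number of cilium genes that rose was 0 without control replicate 1, 0 without control replicate 2, 1 without RU486 replicate 1, 1 without RU486 replicate 2 and 2 without RU486 replicate 3. Without control replicates 1 and 2 it was 0, with 22 at an unadjusted p under 0.05, and the median was 0.88.

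No gene of the eye lists passed the test. All 37 phototransduction genes and all 17 eye pigment genes were tested. At an unadjusted p under 0.05, 0 and 1 of the phototransduction genes were higher and lower, and 2 and 5 of the eye pigment genes, while DESeq2 called 1 and 4 lower. The phototransduction list summed to 82048, 96586 and 103200.0 CPM in the controls and 90353, 81721 and 80061 CPM after RU486, ranges that overlap, with medians of -0.13 for this list and -0.14 for eye pigment. Arr2, the main arrestin, differed by -0.15 ± 0.11, and among eye pigment genes Hn by -0.26 ± 0.09 and ltd by -0.13 ± 0.13. The channel trp was at 2431, 2859 and 2946 CPM and 2644, 2409 and 2304 CPM (-0.16 ± 0.10, adjusted p = 0.36). The eye pigment transporter w was expressed in every library, at 33.2, 36.6 and 37.5 CPM and 30.9, 29.8 and 26.2 CPM (-0.30 ± 0.08, adjusted p = 0.104). Without control replicate 3, 1 phototransduction gene was called lower.

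Few brain genes were called. Of 62 neuronal genes, 1 rose, ple, which is also a cuticle enzyme gene, and the list's median was 0.15. The synaptic gene cpx differed by 0.05 ± 0.07. Synaptic vesicle protein n-syb was at 1199, 1344 and 1459 CPM and 1362, 1275 and 1235 CPM (-0.05 ± 0.09, adjusted p = 0.771). RU486 replicate 3 was the highest RU486 library in 53 of the 62 genes and replicate 2 the lowest in 53, the reverse of the CheA and CheB order. None of 17 glial genes passed (median 0.00), with 1 higher and 1 lower both at an unadjusted p under 0.05 and in DESeq2, and 1 of 37 neuropeptide genes rose, itp, the ion transport peptide, by 0.33 ± 0.06 (adjusted p = 0.0394), a call kept in 1 of the 6 omissions of 1 library, that of control replicate 3. DESeq2 called 3 neuropeptide genes higher and 2 lower. The most abundant members Nplp2 and Dms differed by 0.29 ± 0.11 and -0.04 ± 0.10, and of the glial genes Gs2 and Eaat2 by 0.06 ± 0.09 and -0.07 ± 0.09.

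The 3 Hox genes that rose act in mouthpart segments, and Scr also in the first thoracic segment. proboscipedia (pb), which specifies the proboscis, was at 3.30, 3.83 and 3.66 CPM in the controls and 11.1, 10.5 and 12.8 CPM after RU486 and rose by 1.67 ± 0.11 (adjusted p = 0.00468). Scr, of the labial and first thoracic segments, was at 5.66, 7.97 and 7.20 CPM and 31.1, 38.6 and 34.5 CPM and rose by 2.32 ± 0.15 (adjusted p = 0.00468). Dfd, of the maxillary segment, was at 16.5, 19.8 and 21.5 CPM and 40.0, 38.2 and 42.7 CPM and rose by 1.07 ± 0.11 (adjusted p = 0.00808). In all 3 genes the controls and the RU486 libraries were each close together and far from overlapping. In the w1118 and Act88F-GS-Gal4 control thoraces Scr was at 24.9 and 11.7 CPM, above its head control mean of 6.94 CPM. There pb was at 2.23 and 2.02 CPM and Dfd at 0.0983 and 0.468 CPM, below their head control means of 3.60 and 19.2 CPM.

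These 3 calls also held without control replicates 1 and 2, with differences of 1.64, 2.27 and 0.90 (adjusted p = 0.0158, 0.00588 and 0.0187). In the 6 omissions of 1 library, 2 to 4 Hox genes were called. RU486 replicate 2 was the highest RU486 library in 1 of the 3.

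The other Hox genes were not called. lab, of the most anterior segment, was at 3.14, 2.93 and 2.95 CPM and 2.85, 3.06 and 2.60 CPM (-0.08 ± 0.13, adjusted p = 0.731). Antp, of the thorax, was at 4.65, 3.20 and 2.05 CPM and 10.4, 18.7 and 10.1 CPM without overlap, and missed the threshold at 1.99 ± 0.40 (adjusted p = 0.0554). Ubx, of the posterior thorax and abdomen, was at 3.41, 1.96 and 0.265 CPM and 2.67, 5.11 and 1.91 CPM, so that only control replicate 3 lay below the RU486 libraries (0.78 ± 0.90, adjusted p = 0.64). abd-A, at 6.44, 2.84 and 0.0139 CPM and 0, 0.0157 and 0.0197 CPM, was seen mainly in control replicates 1 and 2, as was Abd-B, and neither was tested.

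**Figure D4:**
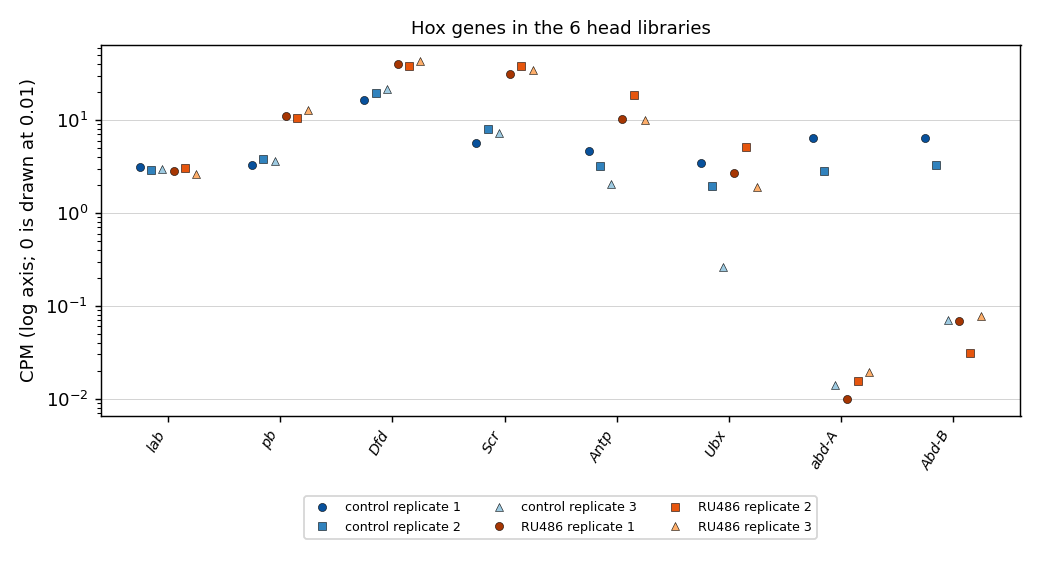
Level (CPM, log axis) of Hox genes in each head library, 1 point per library, blue for control and orange for RU486. pb, Dfd and Scr form tight separate groups, abd-A and Abd-B were highest in control replicates 1 and 2, and the 2 groups overlap for Ubx.

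All 42 genes of the appendage patterning list were tested, 7 rose and 1 fell, and the median was -0.04. Sp1, which promotes leg growth, was at 5.74, 5.53 and 5.95 CPM in the controls and 25.04, 40.7 and 26.0 CPM after RU486 and rose by 2.41 ± 0.21 (adjusted p = 0.00656). al, of distal leg and antenna tips, was at 0.208, 0.218 and 0.278 CPM and 1.45, 1.83 and 1.20 CPM and rose by 2.65 ± 0.27 (adjusted p = 0.00822). ss, which gives the distal antenna its identity, was at 3.57, 3.49 and 3.87 CPM and 12.0, 19.5 and 12.9 CPM and rose by 2.02 ± 0.20 (adjusted p = 0.00778).

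Smaller rises were those of ems (1.57 ± 0.16), btd (1.47 ± 0.27), Dll (0.99 ± 0.17), the master gene of distal limbs, and mid (0.84 ± 0.16), while salr fell by 0.28 ± 0.05. In all 7 that rose, RU486 replicate 2 was the highest library, and the w1118 control thorax mean was at or above the head control mean. In the Act88F-GS-Gal4 control thoraces ss lay below its head control mean, at 2.28 against 3.64 CPM, while Sp1, al and ems lay above theirs. Rises numbered 4 without control replicate 1, 0 without control replicate 2 and 4 without RU486 replicate 1. Leaving out control replicates 1 and 2 gave 0, with 9 at an unadjusted p under 0.05, and Sp1 differed by 2.36 (adjusted p = 0.168).

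Of 32 genes of flight and leg muscle, 3 rose (9.38%, against 5.0% of all genes) and 1 fell. In 19 of the 32 every RU486 library lay above the controls, against 1989 of all 10653 genes (18.7%). Of the 32, 18 were higher and 2 lower at an unadjusted p under 0.05, and DESeq2 called 17 higher and 1 lower. The median was 0.51. Act79B, the actin of leg and other tubular muscle, was at 80.2, 69.0 and 69.8 CPM in the controls and 215, 385 and 185 CPM after RU486 and rose by 1.84 ± 0.30 (adjusted p = 0.0325). TpnC41C, a troponin C, rose by 1.61 ± 0.26 and bt, a giant titin-like kinase, by 1.13 ± 0.22.

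Act57B, an actin of larval and other body muscle, fell by 0.54 ± 0.06, from 803, 789 and 812 CPM to 568, 576 and 508 CPM (adjusted p = 0.0109). Argk, arginine kinase, differed by 0.33 ± 0.07 and Mf by 0.62 ± 0.21 without a call. Mhc, the muscle myosin heavy chain, differed by 0.27 ± 0.12 (adjusted p = 0.214), and the flight muscle actin Act88F was at 5.02, 1.67 and 2.40 CPM and 3.80, 5.06 and 2.75 CPM, groups that overlap, against 171 CPM in the w1118 control thoraces. RU486 replicate 2 was the highest RU486 library in 27 of the 32. The number of muscle genes that rose was 0 without control replicate 1, 0 without control replicate 2 and 1 without RU486 replicate 1. Without control replicates 1 and 2 it was 0, with 6 at an unadjusted p under 0.05, and the median was 0.63.

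A separate set of abundant genes rose in another library order. CG8329 was at 61.6, 213 and 137 CPM in the controls and 2012, 1709.7 and 2244 CPM after RU486 and rose by 3.86 ± 0.51 (adjusted p = 0.0199). CG8343 was at 55.7, 227 and 139 CPM and 1779.7, 1579.5 and 2045 CPM and rose by 3.68 ± 0.56 (adjusted p = 0.0289), and CG9676 was at 21.7, 79.2 and 57.0 CPM and 809, 698 and 882 CPM and rose by 3.92 ± 0.53 (adjusted p = 0.0212). RU486 replicate 3 was highest, replicate 2 lowest among the RU486 libraries, and control replicate 1 lowest of all.

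CG3088, at 40.0, 143 and 74.6 CPM and 1151, 1005 and 1346 CPM, and CG7829 and CG32523 showed the same order and rose by 3.77 ± 0.53, 3.92 ± 0.46 and 3.82 ± 0.52. RefSeq gives CG8329, CG9676, CG7829 and CG32523 serine protease names among their synonyms, and CG3088 that of a serine protease homolog. All 6 were at or under 2.32 CPM in the w1118 control thoraces, unlike the CheA and CheB genes. These 6 genes were chosen after their values were seen, and their control values differed among themselves by more than 3-fold.

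Cuticle protein genes rose in a minority. Of 135 listed, 49 were tested, 10 rose and none fell, and the median was 0.06. Cpr65Au, a chitin-binding cuticle protein, was at 101, 113 and 117 CPM in the controls and 314, 295 and 323 CPM after RU486 and rose by 1.49 ± 0.07 (adjusted p = 0.00387). TwdlT, of the Tweedle family, was at 7.64, 9.01 and 8.09 CPM and 25.9, 24.8 and 23.1 CPM and rose by 1.58 ± 0.08 (adjusted p = 0.0039). In both, the RU486 libraries lay within a narrow band above the controls.

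Cpr62Bb, at 7.48, 7.58 and 8.13 CPM and 28.1, 48.2 and 24.7 CPM, rose by 2.12 ± 0.28 (adjusted p = 0.0183) with RU486 replicate 2 highest, and Cpr47Ef by 1.82 ± 0.33. Cpr49Aa rose by 1.93 ± 0.22, TwdlU by 1.75 ± 0.23, Cpr73D by 1.05 ± 0.10, Cpr67B by 0.89 ± 0.05 and obst-E, a chitin-binding obstructor protein, by 0.54 ± 0.07. Lcp65Ag2, which has near-identical copies, rose by 2.08 ± 0.26, an uncertain value since reads of more than 1 place were not counted. Among cuticle proteins the number called was 4 without control replicate 2 and 5 without RU486 replicate 1, and 5 without control replicates 1 and 2.

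Enzymes that build and harden cuticle gave 9 higher of 40 tested, and none fell. The chitinase Cht3 was at 13.9, 11.5 and 12.7 CPM in the controls and 55.2, 99.6 and 49.1 CPM after RU486 and rose by 2.42 ± 0.31 (adjusted p = 0.0182). ple, the tyrosine hydroxylase that makes dopa for both dopamine and cuticle tanning, was at 52.9, 61.9 and 61.0 CPM and 127.2, 167 and 127.3 CPM and rose by 1.26 ± 0.13 (adjusted p = 0.0085). Its partner in tanning, laccase2, was at 38.6, 35.2 and 39.3 CPM and 59.4, 69.8 and 60.1 CPM and rose by 0.74 ± 0.08 (adjusted p = 0.0099).

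On the synthesis side, Gfat1, which starts the path to the chitin precursor, rose by 0.71 ± 0.07, knk, which protects chitin, by 0.76 ± 0.09, and serp, a chitin deacetylase, by 0.64 ± 0.11. Cht7 rose by 0.65 ± 0.11, yellow-b by 0.53 ± 0.09 and yellow-c by 0.53 ± 0.10. The list's median was 0.05. The count of the enzymes that rose was 0 without control replicate 2, 4 without RU486 replicate 1, 5 without RU486 replicate 2 and 5 without RU486 replicate 3, and 2 without control replicates 1 and 2.

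None of 19 clock genes passed the test of edgeR, and 0 was also the count in each omission of 1 library and without control replicates 1 and 2. At an unadjusted p under 0.05, 1 was higher and 1 lower, and DESeq2 called 1 higher. The list summed to 2357, 2263 and 2379.8 CPM in the controls and 2352, 2385 and 2455 CPM after RU486, with a median of 0.01. The core repressors per and tim were at 33.97, 38.6 and 40.3 CPM and 36.7, 36.4 and 33.9 CPM (-0.08 ± 0.08, adjusted p = 0.588) and at 163, 148 and 159 CPM and 142, 140.1 and 142 CPM (-0.15 ± 0.05, adjusted p = 0.157). Their activators Clk and cyc differed by 0.01 ± 0.09 and -0.04 ± 0.06, and the kinase sgg by 0.07 ± 0.06.

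vri, which represses Clk, was at 49.6, 41.6 and 43.7 CPM and 55.6, 78.5 and 56.3 CPM without overlap, the largest difference among the clock genes named, and did not pass at 0.50 ± 0.16 (adjusted p = 0.144). Pdp1, its rival, differed by 0.16 ± 0.10, cry, the blue-light receptor, by 0.03 ± 0.06 and cwo by 0.10 ± 0.07. The hour at which heads were collected is not given in the sources used here, and the level of several of these transcripts varies through the day.

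The founding member of the takeout family is an output of the clock and a head carrier protein tied to feeding and male courtship. Of 23 members tested, 10 were higher (43.5%, against 5.0% of all genes) and none lower in edgeR's test. At an unadjusted p under 0.05, 10 were higher and 8 lower, DESeq2 called 10 higher and 6 lower, and 6 were called lower without control replicate 3. to was at 52.6, 54.6 and 53.4 CPM in the controls and 175, 209 and 212 CPM after RU486 and rose by 1.89 ± 0.09 (adjusted p = 0.00379), the lowest adjusted p of all genes. Its controls differed among themselves by less than 3 CPM, and it passed without control replicates 1 and 2 at 1.89 (adjusted p = 0.00762). CG14661, which RefSeq names Jhbp3 as a juvenile hormone binding protein, was at 149.5, 173 and 186 CPM and 392, 450.1 and 453 CPM and rose by 1.35 ± 0.10 (adjusted p = 0.00468).

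CG1124 (Jhbp1) was at 54.3, 58.6 and 63.6 CPM and 139, 130.6 and 157 CPM and rose by 1.27 ± 0.09 (adjusted p = 0.00468), and CG17279 (Jhbp15) at 0.624, 0.679 and 0.557 CPM and 3.71, 5.02 and 3.17 CPM by 2.68 ± 0.23 (adjusted p = 0.00609). CG5945 rose by 1.05 ± 0.15, and CG14259, CG31207, CG17189, CG7079 and CG31189 by 0.73 to 0.43. CG31189, CG31207, CG7079 and CG17279 are adjacent in the RefSeq annotation. The number of the family that rose was 4 without control replicate 2 and 4 without RU486 replicate 1, and 5 without control replicates 1 and 2. The median of the family was 0.09. In 7 of the 23 members tested every RU486 library lay below the controls, against 1149 of all 10653 genes (10.8%), and none of the 7 was called.

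Genes of purine synthesis and folate one-carbon metabolism made up the list with the most falls. Of 19 tested, 7 fell (36.8%, against 0.779% of all genes) and none rose. In 13 of the 19 every RU486 library lay below the controls, against 1149 of all 10653 genes (10.8%). The list summed to 4916, 5033 and 5368 CPM in the controls and 3859, 3637 and 4072 CPM after RU486. Its median was -0.33. Enzymes of several steps of the pathway fell. ade2 was at 300.0, 262 and 296 CPM and 175, 162 and 183 CPM and fell by 0.72 ± 0.08 (adjusted p = 0.0087), ade3, which acts in several of the steps, at 347, 361 and 415 CPM and 243, 219 and 254 CPM by 0.65 ± 0.09 (adjusted p = 0.0187), and ade5 at 1011, 1021 and 1085 CPM and 684, 609 and 708 CPM by 0.64 ± 0.07 (adjusted p = 0.0104).

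CG3590, named Adsl (adenylosuccinate lyase) in RefSeq, was at 97.1, 103 and 116 CPM and 56.2, 55.8 and 57.3 CPM and fell by 0.90 ± 0.07 (adjusted p = 0.00517). Nmdmc, a mitochondrial folate dehydrogenase, had the largest fall of the list, from 59.7, 47.1 and 64.8 CPM to 21.2, 22.4 and 24.3 CPM, 1.34 ± 0.13 on the log2 scale (adjusted p = 0.00718). The RU486 libraries of both genes lay within a few CPM of each other. Without control replicates 1 and 2, CG3590 fell by 1.04 and Nmdmc by 1.53 (adjusted p = 0.00463 and 0.00463).

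pug, the cytoplasmic folate enzyme, fell by 0.48 ± 0.09, and Ahcy13, a homocysteine hydrolase, by 0.47 ± 0.07. Outside the list, Gs1, a glutamine synthetase, was at 406, 430.4 and 447 CPM and 266, 254.9 and 277 CPM and fell by 0.69 ± 0.06 (adjusted p = 0.00583), and CG6767, named Prps in RefSeq for phosphoribosyl pyrophosphate synthetase, fell by 0.50 ± 0.07 (adjusted p = 0.0187). These last 2 were chosen after their values were seen. The number of list members that fell was 3 without control replicate 2 and 3 without RU486 replicate 1, and 4 without control replicates 1 and 2, where the median was -0.47.

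**Figure D5:**
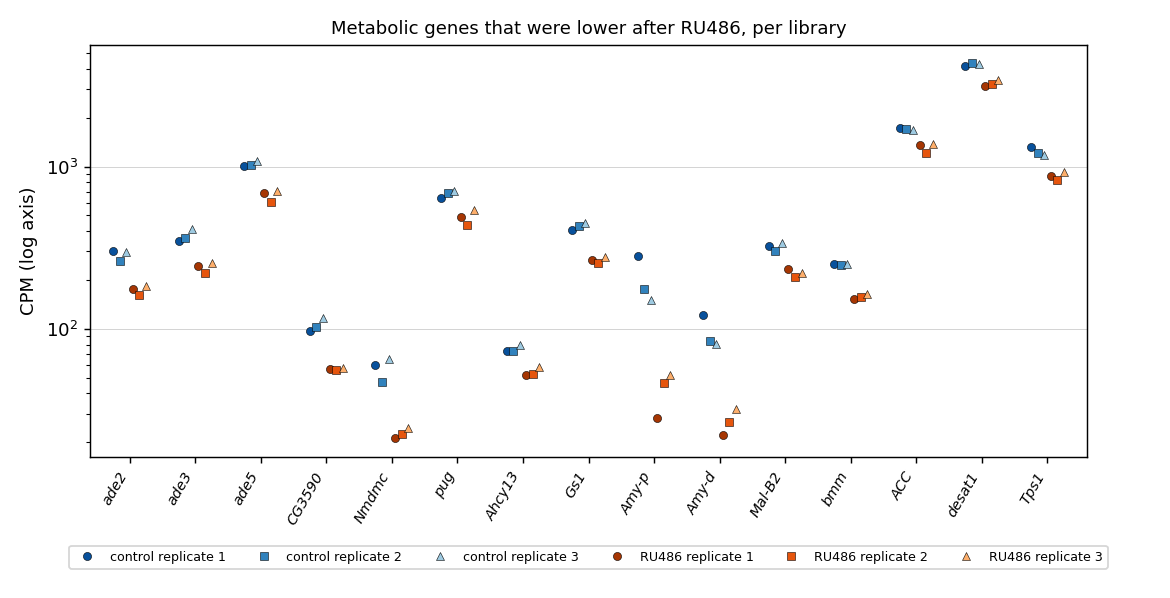
Level (CPM, log axis) of 15 metabolic genes that fell after RU486 in each head library, 1 point per library, blue for control and orange for RU486. In each gene the 3 RU486 points lie below the 3 control points, most widely in Nmdmc, Amy-p and Amy-d, and the controls of Amy-p and Amy-d are highest in replicate 1.

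Among lipid genes, 3 of 23 tested fell and none rose. bmm, the triglyceride lipase Brummer, was at 250.5, 247 and 252 CPM in the controls and 153, 157 and 163 CPM after RU486 and fell by 0.66 ± 0.04 (adjusted p = 0.00468). It also passed without control replicates 1 and 2, falling by 0.68 (adjusted p = 0.0258). desat1, a fatty acid desaturase, fell by 0.39 ± 0.06 and ACC, acetyl-CoA carboxylase, by 0.37 ± 0.06. The number that fell was 1 without control replicate 2, 7 without control replicate 3 and 1 without RU486 replicate 1.

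In sugar metabolism, Tps1, which makes trehalose, the main blood sugar of flies, was at 1325, 1216 and 1178 CPM and 879, 826 and 931 CPM and fell by 0.50 ± 0.07 (adjusted p = 0.0199), the only edgeR call among 12 genes of trehalose, glycogen and gluconeogenesis. Of the 12, 1 was higher and 6 lower at an unadjusted p under 0.05, and DESeq2 called 4 lower. Pepck, of gluconeogenesis, differed by -0.20 ± 0.12 (adjusted p = 0.388). In glycolysis, Gpdh rose by 0.34 ± 0.06 and ImpL3, lactate dehydrogenase, fell by 0.32 ± 0.06, out of 14, and DESeq2 called 2 higher and 2 lower. Tps1, Gpdh and ImpL3 each lost their call without control replicates 1 and 2 (adjusted p = 0.177, 0.226 and 0.171).

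None of 71 mitochondrial ribosome genes passed, with 10 higher and 0 lower at an unadjusted p under 0.05 and 2 higher in DESeq2, and their median was 0.05. mRpS9 differed by -0.00 ± 0.05. mRpS5 was at 88.7, 83.4 and 90.5 CPM and 100.4, 113 and 97.3 CPM (0.24 ± 0.07, adjusted p = 0.13). Of 23 genes of the TCA cycle 1 fell, skap, a succinyl-CoA synthetase subunit, by 0.25 ± 0.05 (adjusted p = 0.0433), and the median was 0.15. Its call was kept in 1 of the 6 omissions of 1 library, that of control replicate 3. At an unadjusted p under 0.05, 9 genes of the cycle were higher and 4 lower, and DESeq2 called 8 and 4. The most abundant, Nc73EF and AcCoAS, differed by 0.40 ± 0.11 and -0.16 ± 0.07.

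The largest falls among called genes averaging at least 2 CPM were those of CG3106, Amy-p, Amy-d, CG5150, Nmdmc, CG4500, CG5966, CG3590, CG42751 and CG8129. CG3106 was at 8.52, 7.92 and 2.01 CPM in the controls and 0.226, 0.266 and 0.590 CPM after RU486 and fell by 4.08 ± 0.73 (adjusted p = 0.0388). CG4500 was at 96.8, 117 and 116 CPM and 46.2, 43.4 and 49.5 CPM and fell by 1.25 ± 0.10 (adjusted p = 0.00468), and CG5966 at 354, 401 and 369.7 CPM and 185, 152 and 179.8 CPM by 1.12 ± 0.09 (adjusted p = 0.00546). CG4500 and CG5966 passed without control replicates 1 and 2 as well, falling by 1.33 and 1.11. CG3106 was lower in control replicate 3 than in the other controls, and fell by 2.48 without them (adjusted p = 0.119).

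Gut genes need the libraries that stood apart to be read beside them. Amy-p and Amy-d, near-identical amylase genes that reads of more than 1 place leave undercounted, were at 282, 177 and 149.7 CPM and 122, 84.2 and 80.1 CPM in the controls and 28.0, 46.1 and 51.8 CPM and 22.2, 26.5 and 32.1 CPM after RU486. They fell by 2.27 ± 0.35 and 1.82 ± 0.22 (adjusted p = 0.0288 and 0.0141). Control replicate 1 was highest, yet control replicate 3 was also above every RU486 library, and without the other controls the falls were 1.84 and 1.58 (adjusted p = 0.195 and 0.0785).

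Mal-B2, a maltase, was at 323, 302 and 339 CPM and 233, 209 and 222 CPM and fell by 0.54 ± 0.07 (adjusted p = 0.0132). Of the 10 amylase and maltase genes tested 3 fell, with a median of -2.32. The number that fell was 1 without control replicate 2, 7 without control replicate 3, 1 without RU486 replicate 1 and 1 without RU486 replicate 2, and 7 in DESeq2, but without control replicates 1 and 2 none fell, 2 rose and the median was -0.13. Mal-A1, another maltase, was at 583, 308 and 1.43 CPM and 16.4, 17.6 and 18.5 CPM, groups that overlap. No digestive protease passed among the 6 tested of 36, with 3 lower at an unadjusted p under 0.05 and 4 lower in DESeq2 or without control replicate 3. Their median of -4.76 became -0.12 without control replicates 1 and 2. The trypsin alphaTry was at 499, 133 and 0.125 CPM and 0.136, 0 and 0.118 CPM and was not tested. The protease yip7, the lysozymes LysD and LysC and the transporter Smvt were likewise seen mainly in control replicates 1 and 2, and not tested. Peritrophin-A, a chitin-binding protein of the gut lining, rose by 0.59 ± 0.09, while no lysozyme passed among the 2 tested.

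Among detoxification enzymes, 10 of 76 cytochrome P450 genes rose (13.2%, against 5.0% of all genes) and 1 fell (1.32%, against 0.779%). In edgeR's test 19 were higher and 12 lower at an unadjusted p under 0.05. DESeq2 called 14 higher and 10 lower, and without control replicate 3 edgeR called 10 higher and 5 lower. Cyp4d21, known as sxe1 and sex-biased in fly heads, was at 164, 208 and 212 CPM in the controls and 704, 872 and 657 CPM after RU486 and rose by 1.93 ± 0.15 (adjusted p = 0.00468). Cyp313a1 was at 626, 728 and 772 CPM and 1537, 1782 and 1525 CPM and rose by 1.19 ± 0.11 (adjusted p = 0.00636). Both passed without control replicates 1 and 2, at 1.80 and 1.06. Control replicate 1 was the lowest control in all 10 genes that rose with all 6 libraries.

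Cyp308a1, at 0.305, 0.460 and 0.571 CPM and 3.96, 6.50 and 4.68 CPM, had the largest rise of the family, 3.50 ± 0.33 (adjusted p = 0.00657), and Cyp6t3 rose by 1.02 ± 0.15. Cyp4ac2, Cyp6a20, Cyp6a21, Cyp317a1, Cyp12b2 and Cyp6a14 rose by 0.27 to 0.95. Cyp6g1, known for insecticide resistance, fell by 0.45 ± 0.05, from 510.0, 501 and 530.3 CPM to 364, 370.5 and 397 CPM (adjusted p = 0.012). The number of P450 genes that rose was 4 without control replicate 1, 2 without control replicate 2 and 4 without RU486 replicate 1, and the median of the family was 0.02.

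Of 37 glutathione and glucuronosyl transferase genes 4 rose (10.8%, against 5.0% of all genes) and none fell in edgeR's test. An unadjusted p under 0.05 was reached by 11 higher and 6 lower genes, and DESeq2 called 6 higher and 4 lower. Without control replicate 3 edgeR called 3 higher and 5 lower. GstE4 was at 1.44, 2.01 and 4.4 CPM in the controls and 15.2, 29.95 and 22.2 CPM after RU486 and rose by 3.10 ± 0.53 (adjusted p = 0.0388), at 0.0534 CPM in the w1118 control thoraces. Ugt86Da rose by 0.59 ± 0.10, GstE6 by 0.47 ± 0.09 and Ugt36Bc by 0.38 ± 0.07. The count of transferases that rose was 2 without control replicate 1, 0 without control replicate 2, 0 without RU486 replicate 1, 2 without RU486 replicate 2 and 1 without RU486 replicate 3.

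In fat body genes, Lsp1beta, a larval storage protein, rose by 0.96 ± 0.15 (adjusted p = 0.0233). It was the only edgeR call of 15 (6.67%, where 5.0% of all genes rose). This call was kept in 2 of the 6 omissions of 1 library, those of control replicates 1 and 3. At an unadjusted p under 0.05, 2 fat body genes were higher and 3 lower, and DESeq2 called 1 higher and 2 lower. Rfabg, the apolipophorin, differed by 0.34 ± 0.13 and Tsf1, transferrin, by 0.03 ± 0.13. PebIII, of the ejaculatory bulb, was abundant in heads at 1976, 2294 and 2529 CPM and 3859, 4747 and 4026 CPM and rose by 0.89 ± 0.12 (adjusted p = 0.0183), the only edgeR call of 11 tested accessory gland and duct genes. In that list 9 were lower at an unadjusted p under 0.05 and in DESeq2, and 7 were called lower without control replicate 3. Est-6, an esterase, differed by 0.09 ± 0.05, and Peb was seen mainly in control replicates 1 and 2 and not tested. No gene of 11 of the Malpighian tubule or of 20 of the testis passed, with 4 and 13 lower at an unadjusted p under 0.05 and 5 and 14 lower in DESeq2, and without control replicate 3 14 testis genes were lower. Among tubule genes Picot, ClC-a and Aph-4 differed by -0.26 ± 0.09, 0.04 ± 0.06 and -0.54 ± 0.22. Of the testis genes bol and S-Lap1 differed by -0.17 ± 0.26 and -7.25 ± 2.11, and loopin-1 was not tested. The testis median of -2.49 became 0.04 without control replicates 1 and 2, and that of accessory gland and duct went from -4.45 to -0.14.

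None of 24 antimicrobial peptide genes, 10 peptidoglycan recognition proteins or 4 Turandot genes passed. At an unadjusted p under 0.05, 3, 0 and 1 were higher and 1, 0 and 1 lower, and DESeq2 called 3, 0 and 1 higher and 2, 0 and 1 lower. Drs, the antifungal peptide drosomycin, was at 60.1, 215 and 166 CPM in the controls and 41.3, 44.8 and 287 CPM after RU486 (-0.24 ± 0.96, adjusted p = 0.9), a spread among replicates that covers both groups. CG18067 and IM4 differed by -0.13 ± 0.22 and -0.16 ± 0.24, PGRP-LC and PGRP-SB1 by 0.13 ± 0.07 and -0.46 ± 0.22, and TotA and TotX by -0.20 ± 0.12 and 0.38 ± 0.10. Of 21 heat shock genes 1 fell, Hsp68, by 0.69 ± 0.13 (adjusted p = 0.0396), while Hsc70-4 and Hsc70-3 differed by -0.03 ± 0.05 and 0.03 ± 0.05. Among nuclear receptors, the protein family that includes the target of RU486 in mammals, 0 of 17 passed in edgeR's test, 1 was higher at an unadjusted p under 0.05 and in DESeq2, and the median was 0.09. Eip75B and Hnf4 differed by 0.05 ± 0.09 and 0.22 ± 0.06.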

How the data were processed

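RNA was measured by strand-specific mRNA sequencing (TruSeq stranded mRNA libraries on an Illumina HiSeq). The deposited values are raw read counts per gene symbol, 1 table per sample, which the authors made by mapping reads with their StrongARM pipeline to the BDGP5.75 annotation and counting with HTSeq. The submitters' processing notes also list BWA, STAR and dm3, and which of these made the tables is not given in the sources used here. Reads of more than 1 place were not assigned to genes. Entries that name no gene held 18.7% to 20.9% of reads and were left out of library sizes and tests.

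Only the 6 head samples entered the fit. Genes with at least 10 counts, taken as 0.171 CPM at the median library size, in 3 libraries were kept (filterByExpr), library sizes were scaled by TMM, and groups were compared with the robust quasi-likelihood test of edgeR 4.0.16 in R 4.3.3, with Benjamini-Hochberg adjustment over all 10653 genes and a threshold of 0.05. The standard error of a log2 fold change was taken as its size divided by the square root of F. The test script was tested on simulated data. Alternatives used other scalings (total counts, upper quartile, DESeq2 size factors), other filters, DESeq2 1.42.0, limma 3.58.1 (voom, with and without sample weights), an unequal-variance test on log2(CPM + 1), all 18 samples of the series in 1 fit, a block for the replicate number, and the omission of single libraries.

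The gene lists (42 lists, 1423 distinct symbols) are hand-written. 80 symbols were matched through RefSeq synonyms and 35 entries were not matched. The rule for named genes took, from called genes without overlap between groups whose average was 1 or more in log2 CPM, those 10 that rose most and those 10 that fell most. It added the 4 called members of each list that differed most (where fewer than 2 passed, the 2 most abundant members), all 8 Hox genes, 8 core clock genes, a few head markers and the 3 most abundant members of each list of another tissue. Further called list members are given singly or as a range, and further uncalled members and genes outside the lists were chosen after their values were seen. The members and lists were chosen with earlier results of these data known. Thorax levels are CPM by total counts and come from other libraries, so they are given beside head levels without a test.

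Leaving out control replicates 1 and 2 together was added after seeing the data and was fitted in 2 ways. On the 10653 genes of the 6-library filter, which the text uses, 126 genes were higher and 15 lower. With the filter repeated on the 4 libraries, which was run first, 129 of 10843 genes were higher and 18 lower, 94 and 13 of them shared with the comparison of all 6 libraries. The change of filter was made after the first of these counts was known.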

Additional observations from a re-analysis of the deposited data

How the results depend on the processing

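With all 6 libraries 533 genes were higher and 83 lower, and these counts depended on the method. Scaling by total counts, upper quartile or DESeq2 size factors gave 438 to 477 higher and 93 to 111 lower genes, and limma voom gave 405 and 71. No filter gave 223 and 27, a mean of at least 10 counts 310 and 53, DESeq2 1032 and 870, voom with sample weights 1076 and 370, and the fit of all 18 samples 682 and 2676. An unequal-variance test on log2(CPM + 1) called 0 and 0, with 1132 and 409 genes at an unadjusted p under 0.05. With 1 library left out and the filter repeated, the counts ran from 0 to 870 higher and from 0 to 2511 lower. With the genes of the 6-library filter kept, they were 272 and 47 without control replicate 1, 91 and 15 without control replicate 2, 589 and 823 without control replicate 3, 179 and 13 without RU486 replicate 1, 335 and 40 without RU486 replicate 2, and 364 and 58 without RU486 replicate 3. Leaving out control replicates 1 and 2 together is a different omission, of 2 libraries, and called 1.18% of genes higher and 0.141% lower. The replicate block gave 149 higher and 19 lower genes, 147 and 17 of them shared, but deviations of same-numbered samples correlated at -0.0435, 0.0565 and 0.0543, against -0.186 to 0.211 for other pairs, so the numbers were not read as pairs. Over the genes named and all alternatives, 974 values lost the call, 39 gained one, 2610 stayed on the same side and 0 changed sign among called genes. The groups did not overlap in any called gene, so a change of sign was hardly possible in these alternatives. Of the list medians, 160 moved by more than the replicate spread and 824 did not. The causes of these differences were not tested. Low genes, such as most odorant and gustatory receptors, are limited by their few counts, and every call by 3 samples per group with 2 controls that stood apart.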
